A study of Mus musculus with 8 samples.

Results

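The 35 genes examined here encode proteins of the cell cycle and of mitosis. Their RNA was compared between cerebral cortex labelled Ptbp2 knockout and wild type cortex, both of mouse embryos. They were chosen by name: the 11 S-phase genes are the Mcm2 to Mcm7 helicase genes, Ccne1, Ccne2, Pcna, Rrm2 and Tyms, the 22 mitotic genes act mainly from G2 to cytokinesis, and the 2 D cyclins Ccnd1 and Ccnd2 act in G1. Probe sets annotated to exactly 1 of these symbols, current or synonym, were used, and Cdk1 was found under its older name Cdc2a. Of the 35 genes, 33 could be tested at gene level, among 12960 genes tested in all: 10 S-phase genes, 21 mitotic genes and both D cyclins. Ccnb1 had no probe set with that single name, and Rrm2, a subunit of ribonucleotide reductase, had 1 probe set, which lay below the signal filter with a mean log2 signal of 6.03 over the 8 arrays.

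RNA came from 4 Ptbp2 knockout embryos and 4 wild type embryos, all at embryonic day 18.5 and on a mixed CD1 and C57BL/6 background, and each embryo was measured on its own Affymetrix mouse exon array. The Ptbp2 protein is an RNA-binding splicing regulator of neurons, known mainly as a repressor of alternative exons. The labels name no Cre driver and do not give the deleted part of the gene. A gene's level is the median log2 signal of its probe sets whose mean reached the median of the whole table (6.84), for genes with at least 4 of them, so a difference of 1 is a doubling of signal.

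In the developing cortex, radial glia of the ventricular zone and intermediate progenitors of the subventricular zone divide, while neurons leave the cell cycle for good. D cyclins with their kinases act in the G1 phase, and cyclin E and the E2F factors open S phase. The Mcm helicase, the Pcna clamp and the nucleotide synthesis enzymes carry out DNA replication. Cyclins A and B with Cdk1 then drive mitosis, where Aurora and Polo kinases, kinetochore proteins and kinesins build the spindle and the checkpoint kinases watch over it. Late in embryonic life most cells of the cortex are neurons, and dividing cells are a minority.

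Many mitotic promoters are known to carry a CHR element beside CCAAT boxes, and many S-phase promoters carry E2F sites. These elements were looked for in the RefSeq promoters of assembly GRCm38.p6, which run from 250 bases before to 50 bases after the start. The CHR was searched as TTTGAA or TTCGAA, the CCAAT box as CCAAT, and the E2F site as TTTCCCGC, TTTGGCGC, TTTCGCGC or TTTGCCGC, each on both strands. The 30 promoters that matched belong to 28 of the 35 genes. A CHR stood in 16 of 20 mitotic and 2 of 10 S-phase promoters, against 19.2% of all 32851 promoters. A CCAAT box stood in 16 of 20 mitotic and 8 of 10 S-phase promoters, against 37.4% of all. An E2F site stood in 1 of 20 mitotic and 4 of 10 S-phase promoters, against 2.26% of all. These matches describe the letters of the windows and say nothing about binding in this tissue. The promoters of 5 genes whose values are given below are shown, 5′ to 3′, with the matches in capitals: 3 mitotic genes with a CHR, the helicase gene Mcm6 with 3 E2F sites, of which a pair overlap, and Tyms, in whose window none of these letters stood.
Kif23 promoter (chr9:61946750-61947049, minus strand): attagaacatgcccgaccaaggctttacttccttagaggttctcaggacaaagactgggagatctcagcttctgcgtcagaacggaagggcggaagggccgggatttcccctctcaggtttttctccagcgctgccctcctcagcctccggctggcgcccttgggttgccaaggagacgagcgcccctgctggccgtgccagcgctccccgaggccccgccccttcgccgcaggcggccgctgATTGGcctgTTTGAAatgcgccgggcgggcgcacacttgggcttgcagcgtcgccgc
Kif11 promoter (chr19:37376132-37376431, plus strand): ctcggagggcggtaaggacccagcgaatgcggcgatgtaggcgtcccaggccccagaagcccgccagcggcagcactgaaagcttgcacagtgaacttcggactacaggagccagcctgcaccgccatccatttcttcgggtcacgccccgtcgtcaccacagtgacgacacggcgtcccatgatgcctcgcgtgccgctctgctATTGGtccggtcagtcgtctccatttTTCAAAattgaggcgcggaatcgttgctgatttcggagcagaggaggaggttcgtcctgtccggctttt
Cdk1 promoter (chr10:69352863-69353162, minus strand): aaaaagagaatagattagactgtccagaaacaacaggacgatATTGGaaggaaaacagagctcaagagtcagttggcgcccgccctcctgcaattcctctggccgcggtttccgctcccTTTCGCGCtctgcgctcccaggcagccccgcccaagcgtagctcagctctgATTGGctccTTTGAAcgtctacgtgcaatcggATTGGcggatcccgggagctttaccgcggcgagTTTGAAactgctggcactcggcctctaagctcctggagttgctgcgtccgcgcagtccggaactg
Mcm6 promoter (chr1:128359656-128359955, minus strand): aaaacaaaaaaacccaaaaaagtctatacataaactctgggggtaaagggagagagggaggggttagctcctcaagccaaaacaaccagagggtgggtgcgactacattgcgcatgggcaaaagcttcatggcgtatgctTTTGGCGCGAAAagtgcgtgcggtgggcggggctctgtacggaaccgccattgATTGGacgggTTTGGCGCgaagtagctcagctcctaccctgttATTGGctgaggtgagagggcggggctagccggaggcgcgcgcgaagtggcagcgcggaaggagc
Tyms promoter (chr5:30073576-30073875, minus strand): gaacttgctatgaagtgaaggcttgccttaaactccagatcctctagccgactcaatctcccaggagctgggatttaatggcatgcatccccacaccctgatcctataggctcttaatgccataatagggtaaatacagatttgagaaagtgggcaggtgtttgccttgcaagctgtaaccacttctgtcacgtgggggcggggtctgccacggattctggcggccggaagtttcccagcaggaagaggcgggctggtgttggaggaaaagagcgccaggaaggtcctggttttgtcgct

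As a check of the labels, Ptbp2 had log2 signals of 6.24, 5.80, 5.54 and 6.22 in knockout cortex, against 11.40, 11.15, 11.08 and 11.16 in wild type. All 4 knockout arrays lay far below all 4 wild type arrays, with a log2 fold change of -5.25 (SE 0.14, limma adjusted p = 1.7e-12), and the knockout mean of 5.95 lay below the signal filter. Array medians lay between 6.82 and 6.93, and no pair of arrays was identical. Over the probe sets kept by the filter, the medians were 8.63, 8.51, 8.59 and 8.59 on knockout arrays. On wild type arrays they were 8.60, 8.51, 8.53 and 8.57, with wild type 2 and 3 below wild type 1 and 4. Knockout 2 also lay below wild type 3. On the first principal component of the gene levels, with 28.9% of the variance, wild type 3 stood farthest from the rest, and on the second, with 22.6%, knockout 3 did. Wild type 3 was the lowest of the 8 arrays in 32.4% of all genes tested and wild type 1 the highest in 32.3%. By Xist, which is high in female cells, each group held 2 female embryos. Genes of postmitotic cortical neurons, the labelled tissue's main cell type, were well above the filter, with a mean log2 signal over the 8 tested of 10 genes of 11.61 to 11.65 on knockout arrays and 11.56 to 11.77 on wild type arrays.

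No cell cycle gene passed the test between the genotypes: 0 of 33 were called at an adjusted p of 0.05 over all genes, against 0.116% of all genes tested (15 of 12960, limma with Benjamini-Hochberg adjustment). By direction, 0 were higher and 0 lower, where 0.0540% of all genes were higher and 0.0617% lower. At an unadjusted p under 0.05 there were 3, namely Kif23 and Bub1b on the higher side and Tyms on the lower side, against 6.49% of all genes (2.70% higher and 3.79% lower). In all 33 genes the groups overlapped, while 3.65% of all genes showed no overlap. The differences were small, with log2 fold changes between -0.27 (Tyms) and 0.26 (Kif11), and none of the 95% intervals reached below -0.52 or above 0.54. The log2 fold change was above 0 in 23 of 33 genes, against 51.0% of all genes, with a median of 0.068 against 0.0027 over all genes. Leaving out 1 wild type array moved this count both ways: it was 28 with wild type 1 left out (60.4% of all genes), 17 with wild type 2 left out (47.7%), 21 with wild type 3 left out (40.4%) and 27 with wild type 4 left out (53.6%). It was 28 with the mean of each gene's probe sets in place of their median. Weighting the arrays by how closely they follow the fit, which gave wild type 4 the highest weight (3.65) and wild type 3 the lowest (0.364), turned the count to 14, with 46.7% of all genes above 0. In bulk cortex, a difference in the number of dividing cells and a difference in RNA per dividing cell cannot be told apart.

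**Figure D1:**
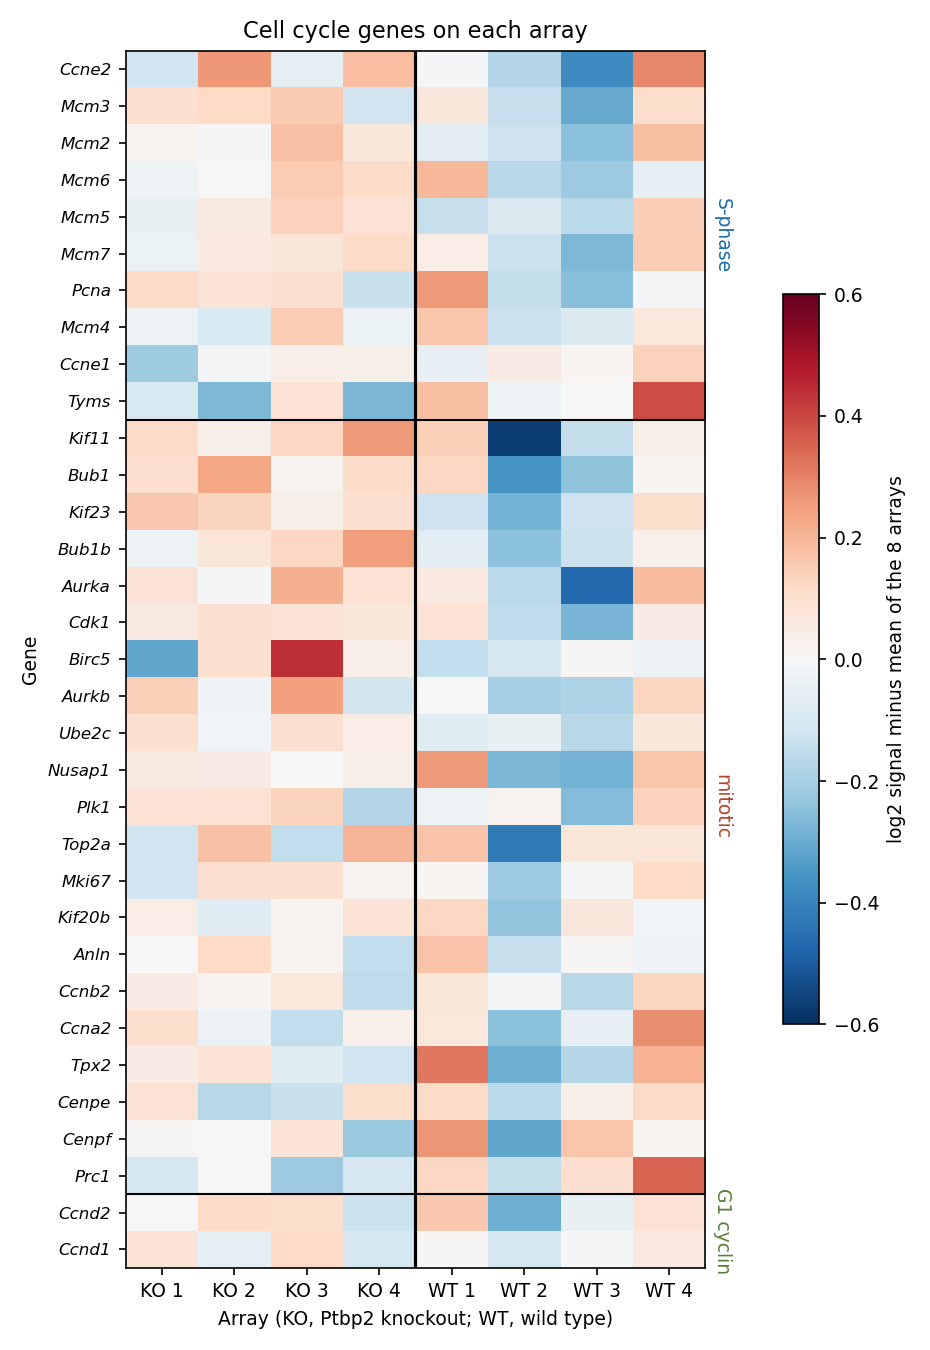
Log2 signal of the 33 tested genes (rows, grouped as S-phase, mitotic and G1 cyclin, each sorted by log2 fold change) on the 8 arrays (columns, 4 Ptbp2 knockout left of 4 wild type), each gene shown relative to its own mean over the arrays. Blue is below and red above the gene's mean, and wild type 2 or wild type 3 was the lowest array for 27 of the 33 genes.

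**Figure D2:**
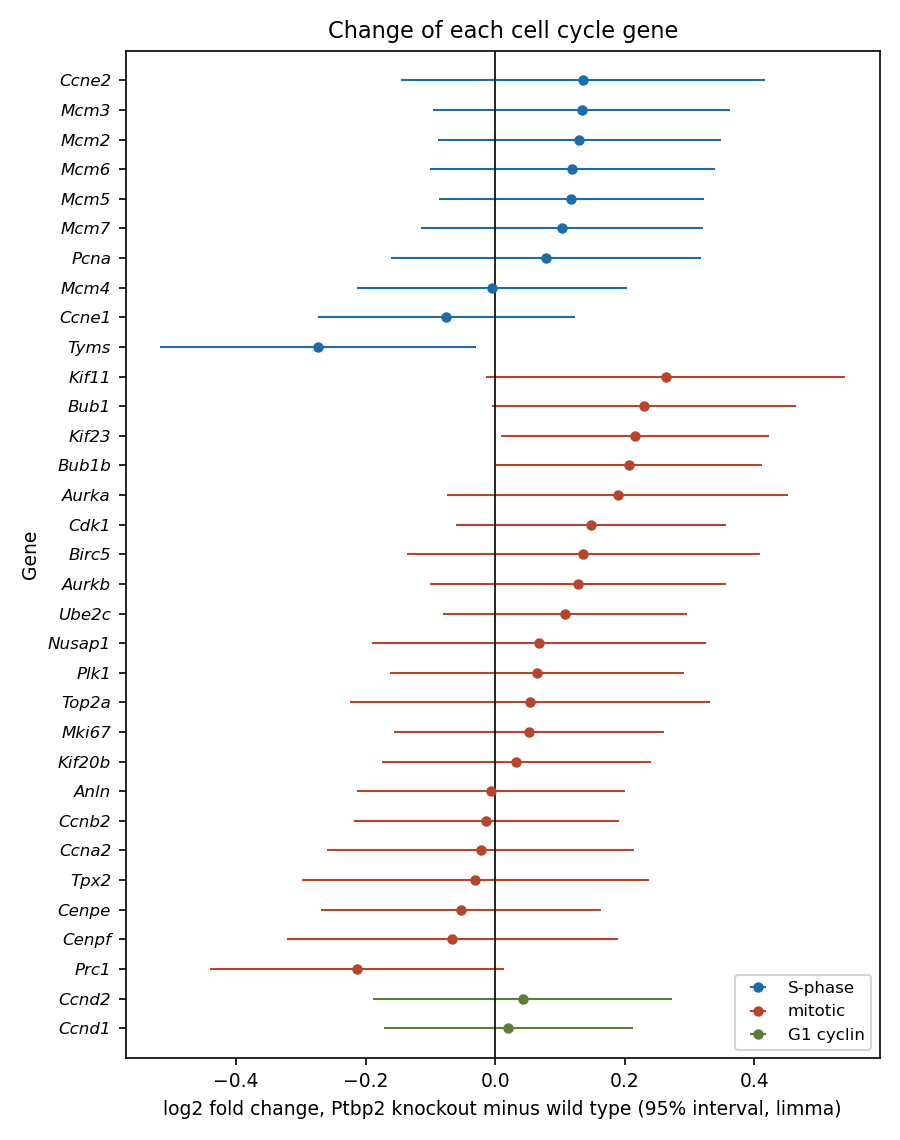
Log2 fold change (Ptbp2 knockout minus wild type, x axis) with its 95% limma interval for each of the 33 tested genes, coloured by class. In 30 of 33 genes the interval spans 0, and the intervals of Kif23, Bub1b and Tyms end just short of it.

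Among the S-phase genes, those of the replicative helicase, which unwinds DNA at the fork, were slightly above wild type in 5 of 6 cases, with none passing the test. Mcm2 had log2 signals of 8.63, 8.60, 8.78 and 8.68 in knockout cortex, against 8.54, 8.48, 8.35 and 8.79 in wild type. Its log2 fold change was 0.13 (SE 0.10, 95% interval -0.088 to 0.35, limma adjusted p = 0.90), and wild type 4 alone lay above every knockout array. Mcm3 was at 8.49, 8.50, 8.54 and 8.27 in knockout cortex, against 8.45, 8.25, 8.08 and 8.49 in wild type, where wild type 3 was the lowest array and knockout 4 lay with the lower wild type arrays (log2 fold change 0.13, SE 0.11, limma adjusted p = 0.91). Mcm5 was at 8.64, 8.74, 8.82 and 8.78 in knockout cortex, against 8.55, 8.60, 8.52 and 8.84 in wild type (log2 fold change 0.12, SE 0.096, limma adjusted p = 0.91). Here 3 wild type arrays lay below every knockout array and wild type 4 above them all. Mcm6 (0.12) and Mcm7 (0.10) were of the same size, and Mcm4 was at -0.0050. The sign was not stable in this family: with array weights Mcm2, Mcm5 and Mcm7 were at -0.022, -0.016 and -0.024, and Mcm4 was at 0.12 with no signal filter.

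Tyms, the thymidylate synthase that makes the thymidine nucleotide for replication, had the largest difference of the S-phase genes, and its direction was opposite to that of most helicase genes. It was at 8.55, 8.37, 8.73 and 8.37 in knockout cortex, against 8.82, 8.61, 8.64 and 9.03 in wild type. Knockout 3 lay among the wild type arrays and the other 3 knockout arrays below them, so the groups overlapped by that array. The log2 fold change was -0.27 (SE 0.11, 95% interval -0.52 to -0.030, limma adjusted p = 0.75), a knockout signal of 0.827 times wild type. Of its 10 probe sets, 9 were below wild type. The value stayed below 0 under every alternative, between -0.43 and -0.18, and the smallest adjusted p was 0.074, with array weights. Without wild type 4 it was -0.19.

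Pcna, the sliding clamp of DNA polymerase, was at 10.89, 10.85, 10.88 and 10.65 in knockout cortex, against 11.03, 10.63, 10.52 and 10.77 in wild type. Wild type 1 was the highest and wild type 3 the lowest array, with all knockout arrays between them (log2 fold change 0.078, SE 0.11, limma adjusted p = 0.96). The cyclins E, which activate Cdk2 at the start of S phase, went opposite ways without passing the test: Ccne1 had a log2 fold change of -0.075 (SE 0.093, limma adjusted p = 0.96). Ccne2 had 0.14 (SE 0.13, limma adjusted p = 0.93), which became -0.081 with array weights. For Rrm2 the single probe set was at 6.34, 5.77, 5.87 and 5.60 in knockout cortex, against 6.29, 6.11, 6.15 and 6.14 in wild type, all below the filter of 6.84, so no level is given.

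Of the mitotic genes, 14 of 21 had a log2 fold change above 0, with a median of 0.065, and 0 of 21 passed the test. The highest values were those of spindle, checkpoint and cytokinesis genes. Kif11, the kinesin that pushes spindle poles apart, was at 8.82, 8.74, 8.83 and 8.96 in knockout cortex, against 8.85, 8.14, 8.56 and 8.74 in wild type. Its log2 fold change of 0.26 (SE 0.13, 95% interval -0.014 to 0.54, limma adjusted p = 0.79) is a knockout signal of 1.20 times wild type. Wild type 2 was the lowest array by a wide gap, and without it the log2 fold change was 0.12. The value was 0.15 with the mean of its probe sets in place of the median.

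Bub1, a kinase of the spindle checkpoint, was at 7.92, 8.05, 7.84 and 7.93 in knockout cortex, against 7.94, 7.46, 7.57 and 7.83 in wild type (log2 fold change 0.23, SE 0.11, 95% interval -0.0049 to 0.46, limma adjusted p = 0.77). Again wild type 2 and 3 were low, while wild type 1 and 4 lay within or beside the knockout values. Bub1b, its checkpoint partner BubR1, was at 8.34, 8.44, 8.49 and 8.62 in knockout cortex, against 8.30, 8.12, 8.24 and 8.40 in wild type, with wild type 1 and 4 beside the lower knockout arrays (log2 fold change 0.21, SE 0.096, limma adjusted p = 0.77, unadjusted p = 0.048). Kif23, a kinesin of the central spindle that cytokinesis needs, was at 8.42, 8.39, 8.29 and 8.36 in knockout cortex, against 8.13, 7.97, 8.13 and 8.36 in wild type. In this gene only wild type 4 overlapped the knockout arrays (log2 fold change 0.22, SE 0.097, limma adjusted p = 0.76, unadjusted p = 0.042). Its log2 fold change was 0.029 when only probe sets above the 75th percentile were kept.

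Prc1, which bundles the microtubules of the same central spindle, had a log2 fold change on the other side of 0. It was at 7.98, 8.07, 7.86 and 7.98 in knockout cortex, against 8.20, 7.93, 8.18 and 8.43 in wild type, with 3 wild type arrays above every knockout array and wild type 2 among them (log2 fold change -0.21, SE 0.11, 95% interval -0.44 to 0.013, limma adjusted p = 0.79). This direction rested on the summary: of its 21 probe sets 12 were above and 9 below wild type, and the gene was at 0.046 with their mean and 0.089 when only brighter probe sets, above the 75th percentile, were kept. Anln, the actin-binding anillin of the cleavage furrow, was at -0.0068 (SE 0.097, limma adjusted p = 0.996), a sign that turned with the mean of the probe sets (0.053).

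Aurka, the Aurora kinase of the spindle poles, was at 8.70, 8.60, 8.82 and 8.69 in knockout cortex, against 8.67, 8.45, 8.15 and 8.80 in wild type. Wild type 3 was far below the rest, wild type 1 and 4 were among the knockout arrays (log2 fold change 0.19, SE 0.12, limma adjusted p = 0.86), and with array weights the value was 0.010. Aurkb (0.13) and Birc5 (0.14), the kinase and the survivin subunit of the chromosomal passenger complex, and Plk1 (0.065), the Polo kinase, had adjusted p between 0.91 and 0.97. Plk1 was at -0.068 with array weights, and Birc5 at -0.0087 with no filter. Birc5 rested on 5 probe sets and was the most variable gene among knockout arrays, from 7.74 in knockout 1 to 8.50 in knockout 3.

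Cdk1, the kinase that drives entry into mitosis, was nearly the same on every knockout array. It was at 8.62, 8.65, 8.64 and 8.63 in knockout cortex, against 8.65, 8.41, 8.28 and 8.61 in wild type. The knockout arrays spanned 0.040 and the wild type arrays 0.37, with wild type 1 and 4 at the knockout level and wild type 2 and 3 below it (log2 fold change 0.15, SE 0.098, 95% interval -0.060 to 0.36, limma adjusted p = 0.87). Its cyclin partners Ccnb2 (-0.014) and Ccna2 (-0.023) were close to 0, and both turned above 0 with the mean of the probe sets (0.082 and 0.078). Among brighter probe sets alone, above the 75th percentile, Ccnb2 was at 0.25.

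The common proliferation marker Mki67, a coat protein of mitotic chromosomes, overlapped between the genotypes. It was at 8.93, 9.15, 9.14 and 9.07 in knockout cortex, against 9.06, 8.82, 9.03 and 9.16 in wild type (log2 fold change 0.052, SE 0.098, 95% interval -0.16 to 0.26, limma adjusted p = 0.98). Top2a, the topoisomerase that untangles sister chromatids, was at 9.27, 9.57, 9.24 and 9.59 in knockout cortex, against 9.56, 8.97, 9.46 and 9.46 in wild type. Wild type 2 was far below the other wild type arrays, which lay among the knockout arrays (log2 fold change 0.054, SE 0.13, 95% interval -0.22 to 0.33, limma adjusted p = 0.98). Without wild type 2 the value was -0.078. Ube2c, the ubiquitin-conjugating enzyme of the anaphase-promoting complex, was at 0.11.

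Of the other spindle and kinetochore genes, Nusap1, a microtubule bundler, had a log2 fold change of 0.068 and Kif20b, a kinesin of cytokinesis, 0.033. Tpx2, the activator of Aurka on the spindle, was at -0.030, the kinetochore kinesin Cenpe at -0.053 and the kinetochore protein Cenpf at -0.066, with adjusted p between 0.97 and 0.99 for these 5 genes. Of the 5, Cenpe alone kept its sign under every alternative. Tpx2 was at 0.076 with no filter, Nusap1 at -0.044 with array weights, Kif20b at -0.011 with quantile normalization and Cenpf at 0.017 among probe sets above the 75th percentile.

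The D cyclins, which link growth signals to the G1 phase, overlapped between the genotypes, with differences below the spread of the arrays. Ccnd2, a D cyclin of cortical progenitors, was at 10.66, 10.77, 10.76 and 10.53 in knockout cortex, against 10.82, 10.37, 10.61 and 10.74 in wild type (log2 fold change 0.042, SE 0.11, 95% interval -0.19 to 0.27, limma adjusted p = 0.98). Wild type 1 was the highest and wild type 2 the lowest of the 8. Ccnd1 was at 9.96, 9.83, 10.01 and 9.79 in knockout cortex, against 9.89, 9.79, 9.88 and 9.95 in wild type, with all arrays within a narrow band (log2 fold change 0.020, SE 0.090, 95% interval -0.17 to 0.21, limma adjusted p = 0.991). With array weights both turned below 0, Ccnd2 to -0.037 and Ccnd1 to -0.023.

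The class means spread more widely among the wild type arrays than they differed between the genotypes, and several other gene lists, but not all, ordered these arrays in a like way. Averaged over the 21 mitotic genes, each centred on its own mean over the 8 arrays, the knockout arrays stood at 0.026, 0.047, 0.050 and 0.019, against 0.079, -0.22, -0.11 and 0.10 for the wild type arrays. All knockout arrays thus lay between the higher pair (wild type 1 and 4) and the lower pair (wild type 2 and 3). Renormalization changed this order and widened the knockout range of 0.032. Quantile normalization put knockout 2 at 0.097, above wild type 1 at 0.049, with a knockout range of 0.134. Cyclic loess put knockout 2 at 0.10, above wild type 1 at 0.072, with a knockout range of 0.145. Wild type 2 and 3 stayed below all knockout arrays in both. Without renormalization the 10 S-phase genes stood at -0.032, 0.019, 0.10 and 0.0043 on knockout arrays, against 0.065, -0.11, -0.19 and 0.14 on wild type arrays. Here knockout 3 lay above wild type 1, and the lowest array was wild type 3, whereas for the mitotic genes it was wild type 2. Wild type 1 and 4 also lay above wild type 2 and 3 in the other lists of replication, mitosis, G1 control and APC/C and SCF genes. The same order stood in radial glia, intermediate progenitor, endothelial and postmitotic neuron genes. It rested on a narrow gap for intermediate progenitor genes (wild type 1 at -0.056, wild type 2 at -0.080). The gap was also narrow for endothelial genes (wild type 4 at -0.053, wild type 3 at -0.072). The remaining marker lists departed from this order. Among wild type arrays, oligodendrocyte precursor genes were lowest in wild type 4 (-0.064) and erythroid genes in wild type 1 (-0.18). In ganglionic eminence genes wild type 2 (0.14) lay above wild type 4 (0.087), and microglial genes were highest in wild type 2 (-0.013). The neuron genes stood at -0.012, 0.0097, -0.033 and -0.019 on knockout arrays, against 0.13, -0.077, -0.041 and 0.045 on wild type arrays, with the same pair of wild type arrays above and the same pair below all knockout arrays. The mean log2 fold change was 0.046 for the S-phase and 0.071 for the mitotic genes. Leaving out wild type 3 put the S-phase mean at -0.0098, and leaving out wild type 4 put it at 0.10. For the mitotic mean the lowest value, 0.010, came from leaving out wild type 2 and the highest, 0.12, from leaving out wild type 4. With array weights the means were -0.063 for S-phase and -0.0069 for mitotic genes.

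**Figure D3:**
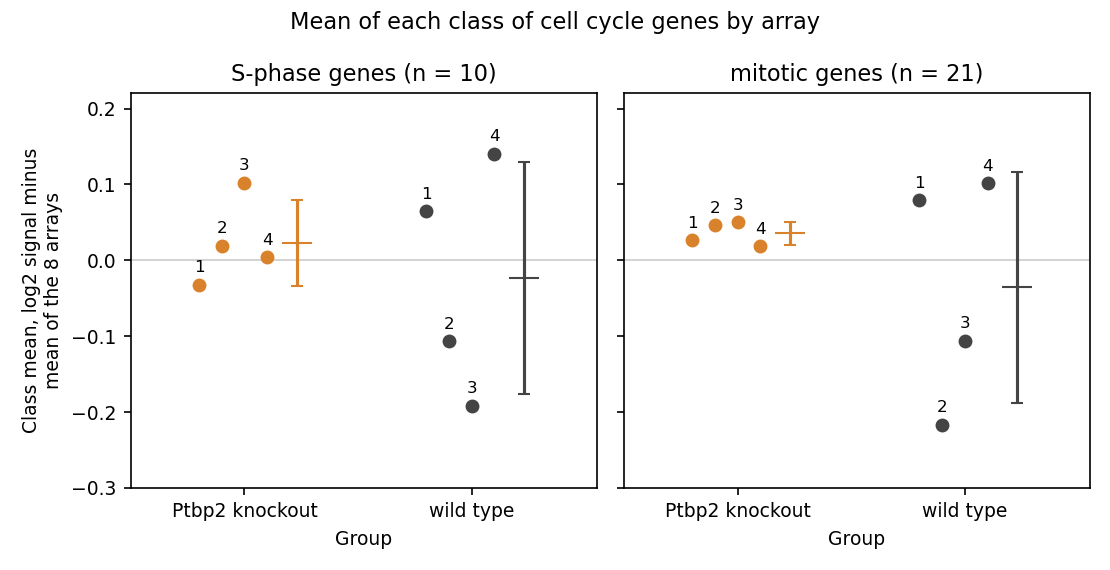
Mean over the 10 tested S-phase genes (left panel) and the 21 tested mitotic genes (right panel) on each array, as log2 signal relative to each gene's mean over the 8 arrays; points are arrays numbered by replicate, and the bar beside them is the group mean ± SD (n = 4). For the mitotic genes the knockout arrays lie between 0.019 and 0.050, and the wild type arrays between -0.22 and 0.10.

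Read gene by gene, wild type 2 was the lowest of the 8 arrays in 14 of 33 genes, against 15.7% of all genes tested, and in 11 of the 21 mitotic genes. Wild type 3 was lowest in 13 of 33, against 32.4% of all genes, and in 7 of the 10 S-phase genes. Wild type 4 was the highest array in 11 of 33 genes, against 8.65% of all genes. For wild type 1 the count was 10 of 33, near its share of 32.3% over all genes. The SD was larger among wild type than among knockout arrays in 28 of 33 genes, against 62.2% of all genes. The same held in 36 of 41 other replication genes (87.8%), 42 of 55 other mitosis genes (76.4%) and 7 of 8 genes of postmitotic neurons (87.5%). It did not hold in every list. The share was 14 of 29 in G1 control genes (48.3%), 2 of 6 in intermediate progenitor genes (33.3%) and 2 of 7 in ganglionic eminence genes (28.6%). Radial glia genes, at 5 of 8 (62.5%), were at the share of all genes. Over the 33 genes the median SD was 0.11 over knockout and 0.18 over wild type arrays, where all genes had 0.12 and 0.15. In 16 of 33 genes every knockout array lay between the lowest and the highest wild type array, against 29.1% of all genes. The wild type arrays spanned more than 0.5 in 9 of 33 genes, Kif11 and Ccne2 among them, and the knockout arrays in Birc5 alone. The share of all genes with such ranges is not given. The 33 genes were measured on the same 8 arrays, so the counts describe those arrays and are not independent observations. For the larger SD in wild type, quantile normalization gave 23 genes in place of 28, cyclic loess 25, and the filter at the 75th percentile 21 of 27. The share of all genes under these settings is not given, so these counts cannot be set against the 62.2% above.

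**Figure D4:**
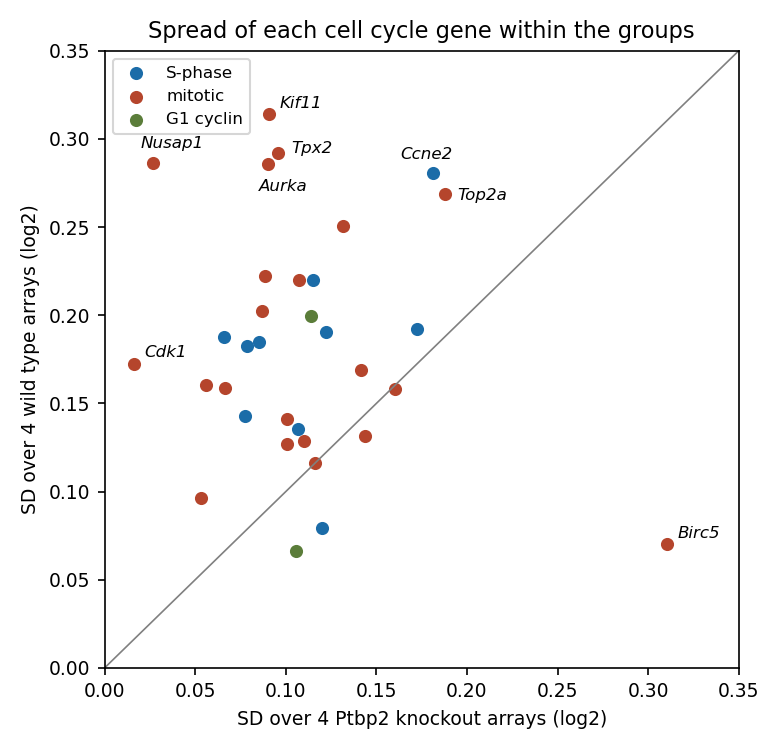
SD of the log2 signal over the 4 Ptbp2 knockout arrays (x axis) and over the 4 wild type arrays (y axis) for each of the 33 tested genes, with the line of equal spread. Of the 33 points 28 lie above the line, and Birc5 lies farthest below it.

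Single probe sets were then examined, since a change in 1 part of a transcript is hidden in a gene's median. Of 573 probe sets of these genes, 0 passed at an adjusted p of 0.05 over all 312767 probe sets, where 0.0921% passed. At an unadjusted p under 0.05, 24 were higher and 5 lower, where 4.84% and 2.59% of all probe sets were. The groups did not overlap in 17 on the higher and 2 on the lower side, against 2.73% and 1.51% of all. In all, 401 of 573 (70.0%) had a log2 fold change above 0, as did 55.6% of all probe sets.

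The smallest unadjusted p belonged to Bub1 probe set 4879995, at 8.07, 8.49, 8.34 and 7.94 in knockout cortex, against 7.86, 7.64, 7.53 and 7.78 in wild type (log2 fold change 0.51, limma adjusted p over all probe sets = 0.41). A second Bub1 probe set, 5566955, was at 8.01, 8.36, 8.31 and 8.04 in knockout cortex, against 7.91, 7.47, 7.55 and 7.86 in wild type (log2 fold change 0.48, limma adjusted p over all probe sets = 0.45). In both the groups lay apart, and 22 of the 25 Bub1 probe sets were above wild type. Tyms probe set 4836093 was at 8.39, 8.05, 8.74 and 8.44 in knockout cortex, against 9.06, 8.74, 8.87 and 9.33 in wild type (log2 fold change -0.60, limma adjusted p over all probe sets = 0.42). The groups lay apart there, and in no other Tyms probe set. Cenpe probe set 5447690 was at 7.23, 7.37, 7.58 and 7.42 in knockout cortex, against 7.06, 6.62, 6.87 and 7.15 in wild type (log2 fold change 0.47, limma adjusted p over all probe sets = 0.45), with wild type 2 below the signal filter, while 15 of the 29 Cenpe probe sets were below wild type. Pcna probe set 5248653 was at 9.94, 9.99, 10.05 and 9.90 in knockout cortex, against 9.62, 9.61, 9.74 and 9.68 in wild type (log2 fold change 0.31, limma adjusted p over all probe sets = 0.53). All 15 Pcna probe sets and all 8 Cdk1 probe sets were above wild type in the mean, by up to 0.32 and 0.26.

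Because Ptbp2 represses exons, the signal of each probe set was also compared with the rest of its gene (usage). Of the 573 probe sets, 0 passed in limma diffSplice, where 0.216% of 195622 did, and the smallest adjusted p was 0.43. At an unadjusted p under 0.05 there were 16, against 4.57% of all. The splicing index, a probe set's signal minus its gene's level tested on its own, called 0 with 34 at an unadjusted p under 0.05, against 0.0107% called and 5.28% at that p over all probe sets. No cell cycle gene passed by the Simes p of its probe sets.

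Other genes of the same pathways did not pass the test either, and most of those of replication and mitosis lay slightly above wild type. Of 45 genes of replication origins and forks, 41 were tested, 0 passed in either direction, and 33 had a log2 fold change above 0, against 51.0% of all genes, with a median of 0.087. With wild type 1, 2, 3 or 4 left out in turn the count was 37, 30, 23 or 36 of 41, beside 60.4%, 47.7%, 40.4% or 53.6% of all genes, and array weights gave 25 of 41 beside 46.7%. The smallest p belonged to Gins1 (0.30, SE 0.15, limma adjusted p = 0.79), a subunit of the helicase complex, and its partner Cdc45 (0.18), then to Uhrf1 (0.17), which brings DNA methylation to new strands, and Dut (0.20), a dUTPase. Of 56 further mitotic genes, 55 were tested, 0 passed in either direction and 46 were above 0, with a median of 0.084. In the same fits this count was 49, 36, 41 or 47 of 55, and array weights gave 32 of 55. Here the smallest p were those of Cdc25c (0.33, SE 0.13, limma adjusted p = 0.75), the phosphatase that activates Cdk1, the kinesin Kif18a (0.22), the checkpoint kinase Ttk (0.24) and the kinase Melk (0.27). By array, the 55 genes averaged 8.29 to 8.31 on knockout arrays and 8.08 to 8.34 on wild type arrays.

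Genes of G1 control and of the ligases that mark cell cycle proteins for decay lay on both sides of wild type. Of 33 genes of G1 control, 29 were tested and 0 passed in either direction, with 16 above 0 and a median of 0.011. The inhibitor of Cdk4 and Cdk6 encoded by Cdkn2c was at 0.25 (SE 0.11, limma adjusted p = 0.75) and Cdk2 at 0.26, while the inhibitor genes Cdkn2a (-0.21) and Cdkn1a (-0.33) were below wild type. Knockout 3, at 7.90, was the lowest Cdkn1a array, and without it the log2 fold change was -0.12. Cdkn2a was at 0.15 with no filter. All 20 genes of the ubiquitin ligases APC/C and SCF were tested and 0 passed in either direction, with 9 above 0. Cdc23, a core subunit of the APC/C, was at 10.10, 9.97, 9.92 and 10.18 in knockout cortex, against 10.57, 10.35, 10.26 and 10.50 in wild type, with the groups apart (log2 fold change -0.37, SE 0.10, 95% interval -0.59 to -0.16, limma adjusted p = 0.36). Its neighbour in the complex, Cdc27, was at 10.27, 10.18, 10.18 and 10.24 in knockout cortex, against 10.57, 10.28, 10.52 and 10.38 in wild type, again without overlap (log2 fold change -0.22, SE 0.093, limma adjusted p = 0.75). The other APC/C genes with small p lay on the other side, namely Anapc2 (0.17) and the E2 enzyme gene Ube2s (0.15). With array weights Cdc23 passed, at -0.39 and an adjusted p of 0.042, and it did not pass in any other fit.

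**Figure D5:**
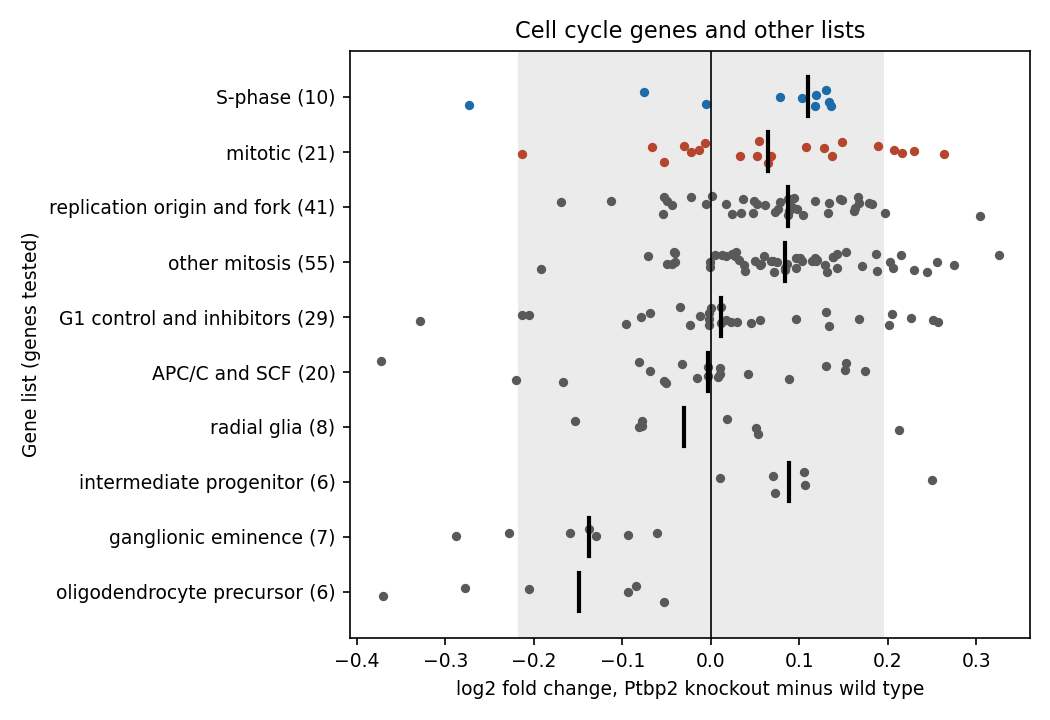
Log2 fold changes (Ptbp2 knockout minus wild type, x axis) of the tested S-phase and mitotic genes and of 8 further gene lists (rows, with the number of genes tested); points are genes, black bars list medians, and the grey band holds the middle of all genes other than Ptbp2, from the 5th to the 95th percentile (-0.22 to 0.19). The medians of the S-phase, mitotic, replication and other mitosis lists lie between 0.065 and 0.11, and those of ganglionic eminence and oligodendrocyte precursor genes at -0.14 and -0.15.

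Markers of several cell types, dividing or not, were set beside these values, and 0 genes of any of the lists passed the test. Radial glia genes (8 of 10 tested) averaged 9.53 to 9.68 on knockout arrays and 9.42 to 9.73 on wild type arrays, with 4 of 8 above 0, from Hopx (-0.15) to Pax6 (0.21). They were lowest in wild type 3, as the S-phase genes were, and 1 of 8 was above 0 when that array was left out or arrays were weighted. Intermediate progenitor genes (6 of 7 tested) averaged 8.74 to 9.03 on knockout arrays and 8.59 to 8.91 on wild type arrays. Of these, 6 of 6 were above 0, against 51.0% of all genes, from Insm1 (0.011) to Mfng (0.25). With wild type 1, 2, 3 or 4 left out in turn the count was 6, 5, 4 or 6 of 6. Array weights left 2 of 6 above 0, with Insm1 at -0.12. Ganglionic eminence genes (7 of 9 tested) averaged 8.67 to 8.95 on knockout arrays and 8.84 to 9.11 on wild type arrays, and 0 of 7 were above 0, from Dlx5 (-0.29) to Gsx2 (-0.061). Oligodendrocyte precursor genes (6 of 7 tested) averaged 8.19 to 8.28 on knockout arrays and 8.27 to 8.63 on wild type arrays, with 0 of 6 above 0, from Gpr17 (-0.37) to Olig1 (-0.053). The ganglionic eminence count stayed at 0 with any wild type array left out and with array weights. The oligodendrocyte precursor count was 1 of 6 with array weights or with wild type 1 left out.

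Endothelial genes (7 of 8 tested) averaged 8.55 to 8.71 on knockout arrays and 8.53 to 8.73 on wild type arrays, from Emcn (-0.11) to Esam (0.24). Microglial genes (5 of 10 tested) averaged 8.09 to 8.31 on knockout arrays and 7.81 to 8.08 on wild type arrays, with all 5 above 0, from Csf1r (0.056) to the lysosomal gene Cd68 (0.35), which passed with array weights (0.44, adjusted p = 0.034) and in no other fit. The knockout and wild type arrays lay apart in this mean by a narrow gap, knockout 2 at 8.089 against wild type 2 at 8.079. With no filter and all 10 genes they overlapped, with knockout 2 at 7.34, against 7.39 in wild type 2 and 7.38 in wild type 4. Aif1, Cx3cr1, P2ry12, Tmem119 and C1qa had too few probe sets above the filter to be tested. Erythroid genes (3 of 10 tested) averaged 7.43 to 7.80 on knockout arrays and 7.47 to 7.82 on wild type arrays, from Epb42 (-0.15) to Alas2 (0.25). Of the erythroid genes not tested, 5, the adult globin genes among them, had no probe set with a single name. Hbb-y and Klf1 had too few probe sets above the filter. Postmitotic neuron genes ranged from Tbr1 (-0.20) to Stmn2 (0.061). The part of these cell types in the values of the cell cycle genes was not tested.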

How the data were processed

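The authors deposited log2 probe set signals from 8 mouse exon arrays. The submitters' processing notes name RMA, mm9 and the Affymetrix Expression Console, without versions. As usually run, RMA corrects background, quantile-normalizes and summarizes probes, which removes differences in total RNA and compresses low signals. A platform annotation gave exactly 1 symbol to 303629 of 625534 probe sets, several to 5892 and none to 316013, and symbols were updated through RefSeq (17657 of 21634 current, 3919 updated). Probe sets with a mean at or above 6.84 were retained (312767), and a gene with at least 4 was given their median per array.

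Knockout was compared with wild type with limma 3.58.1 under R 4.3.3 (lmFit, then eBayes), two-sided and without covariates, with Benjamini-Hochberg adjustment over all 12960 genes or 312767 probe sets at 0.05. Every adjusted p is from these fits, and intervals are at 95%. Usage was tested with diffSplice and the splicing index. Class means and list counts are descriptions with no test. The fits were tested on simulated data. Per the labels each array is a biological replicate from 1 mouse, and having 4 per group limits the precision.

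The members and lists were chosen with earlier results of these data known. Values on every array are given for the 4 S-phase and 6 mitotic genes with the smallest p, both D cyclins, and Mki67, Top2a, Pcna and Cdk1 (Ccnb1 had no values). For pathway lists up to 4 genes with the smallest p are named, for marker lists the lowest and highest log2 fold change, and for probe sets the 5 with the smallest p. Array values of Cdc23, Cdc27 and Rrm2 are given outside this rule, chosen after they were seen. Alternatives were renormalization by quantiles or by cyclic loess, no filter, a filter at the 75th percentile, trend and robust eBayes, array weights, the mean of probe sets, a minimum of 1 probe set, the replicate number as a block, Xist as a covariate, each array left out, and both arrays numbered 3 left out. Counts over the other lists without single arrays or with array weights, and the SD counts under other settings, were added after the data were seen.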

Additional observations from a re-analysis of the deposited data

Results flagged for a closer look

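A single array stood apart from the other 3 of its group in 4 of 138 groups of 4 examined, by the gap to its neighbour over the group's range; chance gives about 1 in 20. Top2a in wild type 2 was at 8.97, against 9.46 to 9.56 in the other wild type arrays. Pcna in knockout 4 was at 10.65, against 10.85 to 10.89 in the other knockout arrays. Plk1 in knockout 4 was at 8.47, against 8.73 to 8.78 in the other knockout arrays. Stmn2, a neuronal tubulin-binding gene, was at 12.65 in knockout 2, against 12.47 to 12.49 in the other knockout arrays.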

How the results depend on the processing

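Of the 19 alternatives run, none brought a cell cycle gene past the threshold, nor a probe set of one where probe sets were refitted, and the smallest adjusted p of a cell cycle gene was 0.074 (Tyms, array weights). The sign turned in 20 of 33 genes under at least 1 of 19 alternatives, in 64 of 621 fits. With no filter the turned log2 fold changes were Top2a -0.072, Ccna2 0.021, Mcm4 0.12, Tpx2 0.076, Birc5 -0.0087, Nusap1 -0.054, Prc1 0.030, Anln 0.071, Cdkn2a 0.15, Hopx 0.15, Emcn 0.036 and Tbr1 0.0088. With the filter at the 75th percentile the turned log2 fold changes were Ccnb2 0.25, Ccnd2 -0.097, Mcm4 0.00081, Cenpf 0.017, Tpx2 0.092, Prc1 0.089, Csf1r -0.024 and Stmn2 -0.0061. With quantile normalization the turned log2 fold changes were Kif20b -0.011. With cyclic loess the turned log2 fold changes were Kif20b -0.021 and Insm1 -0.0084. With array weights the turned log2 fold changes were Mki67 -0.043, Ccne2 -0.081, Ccnd1 -0.023, Ccnd2 -0.037, Mcm2 -0.022, Mcm5 -0.016, Mcm7 -0.024, Plk1 -0.068, Nusap1 -0.044 and Insm1 -0.12. With the mean of probe sets the turned log2 fold changes were Ccnb2 0.082, Ccna2 0.078, Mcm4 0.0061, Tpx2 0.017, Nusap1 -0.0036, Prc1 0.046 and Anln 0.053. Without both arrays numbered 3 the turned log2 fold changes were Ccna2 0.0023, Ccnd1 -0.016, Pcna -0.014, Plk1 -0.046, Nusap1 -0.0028 and Insm1 -0.11. With 1 array left out the genes that turned ranged as Anln -0.055 to 0.049, Ccna2 -0.11 to 0.067, Ccnb2 -0.071 to 0.035, Ccnd1 -0.017 to 0.057, Ccnd2 -0.048 to 0.10, Cenpf -0.18 to 0.011, Emcn -0.17 to 0.0097, Insm1 -0.065 to 0.084, Kif20b -0.041 to 0.079, Mcm4 -0.057 to 0.049, Mki67 -0.013 to 0.10, Nusap1 -0.015 to 0.16, Olig1 -0.14 to 0.027, Plk1 -0.012 to 0.13, Top2a -0.078 to 0.12 and Tpx2 -0.13 to 0.070. The number of genes past the threshold over the whole table, 15 here, was 7 with no filter, 25 with the filter at the 75th percentile, 24 with quantile normalization, 71 with array weights, 37 with the mean of probe sets, 5 with a minimum of 1 probe set and 9 without both arrays numbered 3. With 1 array left out it lay between 7 and 15. The replicate number as a block gave 22 genes and 0 cell cycle genes. The numbers were not shown to pair the arrays, since same-numbered arrays correlated at -0.0039 to 0.25 in their deviations and 4 of 8 correlated best with their own number. It changed no call among the genes named here. The S-phase mean lay between -0.063 and 0.10 and the mitotic mean between -0.0069 and 0.12 over all alternatives. The cause of these changes was not tested.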

Other observations

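Among the named cell cycle genes, the difference between the median and the mean of probe sets was widest for Prc1, at -0.21 and 0.046. Pcna was at 0.078 with the median and 0.14 with the mean, with all 15 probe sets above wild type in both cases.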
